A study of Caenorhabditis elegans with 2 samples.

Results

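Away from coding gene starts, 317 peaks of the transcription factor ELT-3 lay on chromosome X of *Caenorhabditis elegans*, of 611 peaks on X and 2940 in the genome. A peak was taken when its summit, the position of highest signal, lay outside a window around the 5′ end of every protein-coding gene, which reached 1000 bp upstream and 500 bp downstream. It also had to lie more than 100 bp from any tRNA, snRNA or snoRNA gene. Of the other X peaks, 236 lay at coding starts and 58 lay only near such an RNA gene. The peaks come from chromatin immunoprecipitation and sequencing (ChIP-seq) of whole first-stage (L1) larvae of mixed sex, of unknown age. The strain was OP75, genotype unc-119(ed3) III; wgIs75, in which a transgene expresses ELT-3 with a C-terminal GFP-FLAG tag. Both libraries, biological replicates 1 and 3, carry the same mutation and transgene, so no genotypes or conditions could be compared, and no untagged strain was analysed here. Which of GFP and ELT-3 the antibody binds cannot be read from the labels, nor can the copy number of the transgene. The libraries also differ in where the worms came from and in the fragmentation record, with a sonication tip noted for replicate 3 and a size range for replicate 1.

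ELT-3 belongs to the GATA family of zinc-finger transcription factors and acts mainly in the epidermis, the layer that secretes the worm's collagen cuticle. GATA factors bind GATAA or GATAG preceded by A or T, here called a GATA site. Chromosome X of the worm is also the target of dosage compensation: in XX hermaphrodites a condensin-like complex binds X and lowers its transcription to match that of XO males. The complex is recruited at rex sites (recruitment elements on X), which carry a short sequence called MEX (motif enriched on X), whose core is GCGCAGGG. A MEX core was counted here when all 8 letters were found on either strand with at most 1 mismatch. The third sequence scored was GAGAGA, the GA repeat. Each was searched for on either strand up to 50 bp to each side of a summit, and occurrences of different motifs could share end bases.

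MEX cores at the strongest summits set these peaks apart from autosomal peaks away from starts. The 6 strongest peaks with an exact core are shown with 50 bases to each side of the summit on the plus strand of WBcel235, the assembly also named ce11, from RefSeq, with peaks numbered by signal among the 317. Capitals mark MEX cores, and an occurrence in capitals other than the exact word or its reverse complement holds 1 mismatch.
Peak 4, chrX:8036334-8036434: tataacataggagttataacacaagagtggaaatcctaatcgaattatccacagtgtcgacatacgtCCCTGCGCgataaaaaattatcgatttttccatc
Peak 5, chrX:6296527-6296627: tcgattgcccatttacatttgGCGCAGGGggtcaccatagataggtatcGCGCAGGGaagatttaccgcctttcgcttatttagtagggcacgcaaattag
Peak 6, chrX:11094175-11094275: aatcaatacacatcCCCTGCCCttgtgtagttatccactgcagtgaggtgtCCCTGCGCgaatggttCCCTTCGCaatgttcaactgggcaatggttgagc
Peak 10, chrX:4209258-4209358: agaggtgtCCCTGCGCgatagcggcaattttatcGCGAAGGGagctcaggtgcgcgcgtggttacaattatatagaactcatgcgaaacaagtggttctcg
Peak 11, chrX:2997066-2997166: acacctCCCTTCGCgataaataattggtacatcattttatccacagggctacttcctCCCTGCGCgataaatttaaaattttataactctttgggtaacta
Peak 13, chrX:806628-806728: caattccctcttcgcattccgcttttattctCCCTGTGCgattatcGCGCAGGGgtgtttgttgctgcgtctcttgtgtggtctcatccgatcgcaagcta
All 6 lay in introns or between genes. Peak 5 held 2 exact cores and lay in an intron of mom-1, which encodes an acyltransferase needed for Wnt secretion. Peak 6 held 3 cores, 1 of them exact, 2727 bp downstream of the uncharacterised gene W02H3.3. Peak 4 lay 4770 bp downstream of C34D10.1, and the nearest 5′ end was that of xol-1, the gene that switches sexual fate by the dose of X. Peak 10 lay 1263 bp downstream of hpk-1, a homeodomain-interacting protein kinase gene.

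GATA sites were at 5 of the 20 strongest summits, where windows 500 bp beside the 317 summits held one in 24.6%. The 4 strongest peaks with at least 2 GATA sites are shown in the same way, with GATA sites in capitals.
Peak 3, chrX:12500990-12501090: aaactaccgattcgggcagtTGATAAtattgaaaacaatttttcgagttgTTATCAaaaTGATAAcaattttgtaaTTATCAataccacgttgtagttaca
Peak 19, chrX:13937495-13937595: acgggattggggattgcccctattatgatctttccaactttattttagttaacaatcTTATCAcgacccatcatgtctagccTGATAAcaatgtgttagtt
Peak 24, chrX:1478036-1478136: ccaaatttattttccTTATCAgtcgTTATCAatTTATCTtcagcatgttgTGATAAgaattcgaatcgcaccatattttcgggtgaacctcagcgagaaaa
Peak 27, chrX:8750385-8750485: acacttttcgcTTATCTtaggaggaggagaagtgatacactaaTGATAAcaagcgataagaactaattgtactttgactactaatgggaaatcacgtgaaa
Peak 3 held 4 GATA sites and lay 1828 bp downstream of sdz-19. Peak 19 lay in an intron of elt-3 itself. Peak 24 held 4 GATA sites, 1456 bp upstream of acly-1, an ATP citrate lyase gene. Peak 27 lay in an intron of asns-2, an asparagine synthetase gene. Next in signal with at least 2 sites were peak 30 (120.7), 962 bp downstream of M163.1, and peak 32 (117.7), in an intron of mob-2, a gene of the Mob family of kinase activators.

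The 317 peaks had a median deposited signal of 53.6, an interquartile range of 43.0 to 73.1 and a highest value of 337.75. Signal is the peak caller's measure of strength, as the authors deposited it, and it is used here only to rank and describe peaks within a list. It lay close to the signal in the replicate 1 list. Peak 1 had 337.75, with 329.3 in replicate 1 and 8.55 in replicate 3, and peak 5 had 271.7, with 255.4 and 19.77. The order of the peaks by signal is thus mainly that of replicate 1. The 986 autosomal peaks chosen by the same distance rule had a median of 52.3 and a highest value of 356.4. Of the X peaks 65 (20.5%) fell in the top 20% of all nuclear peaks by signal, at a value of 81.9 or more, against 200 (20.3%) of the autosomal peaks. The odds ratio was 1.01 (95% interval 0.728 to 1.40), with an adjusted p of 0.936 by two-sided Fisher's exact test, adjusted over 6 comparisons of these sets (Benjamini-Hochberg). That comparison depended on the library, since in the strongest regions of replicate 3 alone the odds ratio was 1.75, with an adjusted p of 0.00016. Adjusted p-values for 1 library alone or another alternative used the main p-values of the other comparisons. They are thus not adjusted within that library or alternative. GC content around the summits was 41.4% ± 7.34 (SD, n = 317) on X and 41.3% ± 7.68 (SD, n = 986) on autosomes, and flanking windows had 34.5% and 34.8%. Depth is unknown, as the lists give no numbers of reads, and the intervals cover the counting of peaks only.

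At the threshold, the weakest of the 317 peaks had a signal of 34.17, and the next X region away from starts, left out, had 34.14. At the upstream edge of the gene window the nearest peak kept lay 1014 bp from a 5′ end with a signal of 215.6, and the nearest one excluded lay at 997 bp with 40.7. At the downstream edge these were 506 bp with 130.9 and 434 bp with 38.8.

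Per Mb of sequence that met the distance rule, X held 23 such peaks. The autosomes ranged from 12.8 on chromosome V to 20.8 on chromosome II. Along X the 17 full 1-Mb bins held 6 to 32 of the peaks, with a median of 17. Among the candidate regions away from starts called on both libraries together, 317 of 3753 X regions (8.45%) were thresholded, against 986 of 16522 autosomal regions (5.97%). The odds ratio was 1.45 (1.27 to 1.66), with an adjusted p of 4.1e-07 by two-sided Fisher's exact test. In the replicate 3 list alone it was 1.05, with an adjusted p of 0.580 by the same test. In that of replicate 1 alone it was 1.45, from 317 of 3749 X regions and 988 of 16465 autosomal ones. Those counts nearly repeat the pooled ones, so replicate 1 alone is hardly a separate check.

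MEX cores were more frequent at X summits away from starts than beside them or at autosomal summits away from starts. The core was found at 33 of the 317 summits (10.4%, exact 95% interval 7.27% to 14.3%), where 5.32% of all 2916 nuclear peaks held it. In equally long windows centred 500 bp to either side it was found in 12 of 634 (1.89%), which gives a ratio of 5.50. The higher p of the exact McNemar tests against each side was 4.2e-05. Of the autosomal summits away from starts 30 of 986 (3.04%) held a core. The odds ratio of X against autosomes was 3.70 (2.15 to 6.40), with an adjusted p of 3.3e-06 by two-sided Fisher's exact test. X peaks at coding starts held one in 11 of 236 (4.66%). Both this share and the 3.04% of autosomal summits away from starts lay below the 5.32% of all nuclear peaks.

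The word itself was not more frequent on X in this form. When each chromosome was tiled with windows of that length, 1.26% of X windows and 1.30% of autosomal windows held a core. The exact 8 letters were less even, with 4.57 occurrences per Mb on X and 2.82 per Mb on autosomes. Of the 81 exact occurrences on X, 27 (33.3%) lay inside thresholded peaks, 22 of them inside 17 of the peaks described here. Of the 233 autosomal ones, 4 (1.72%) lay inside thresholded peaks. Within 50 bp of the summit the exact letters were found in 11 of the 317 peaks and in 0 of the 986 autosomal ones, for which the exact 95% interval reaches 0.373%.

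**Figure D1:**
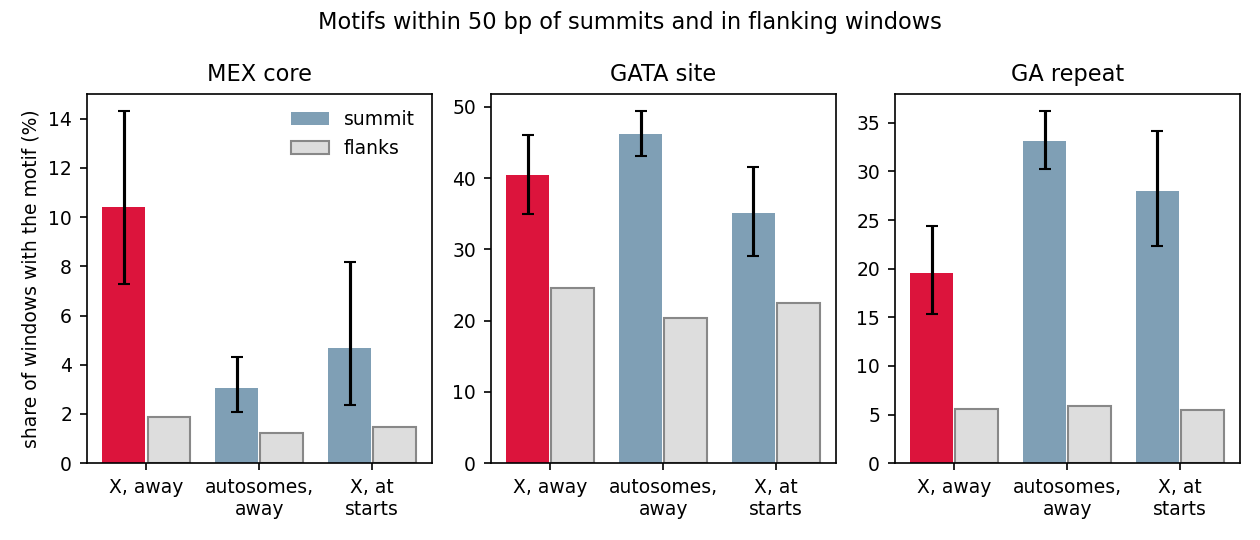
Share of windows with a MEX core, a GATA site or the GA repeat, at summits (coloured bars, red for the X peaks away from starts, with exact 95% intervals) and in windows 500 bp away (grey bars). The MEX core was at 10.4% of X summits away from starts and 3.04% of autosomal ones, and the GA repeat had the opposite order, 19.6% against 33.2%.

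MEX cores were most frequent among the strongest X peaks. Of the 10 peaks of highest signal 8 held a MEX core, of the 20 highest 13, and of the 50 highest 15. Of the 20 strongest autosomal peaks away from starts 0 held one, and of the 50 strongest 0. Within X, 15 of 65 peaks in the top 20% by signal held a core (23.1%) and 18 of the other 252 (7.14%), with an odds ratio of 3.88 (1.70 to 8.78). The adjusted p, over 2 comparisons chosen after seeing the data, was 0.0017 by two-sided Fisher's exact test. In bins of 20% of the nuclear peaks, from lowest to highest signal, the X shares were 9.26%, 3.17%, 10.3%, 5.97% and 23.1%, and the autosomal shares stayed between 2.26% and 4.57%. Outside the top 20% X was still higher, 7.14% against 3.18%, with an odds ratio of 2.34 and an adjusted p of 0.020.

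**Figure D2:**
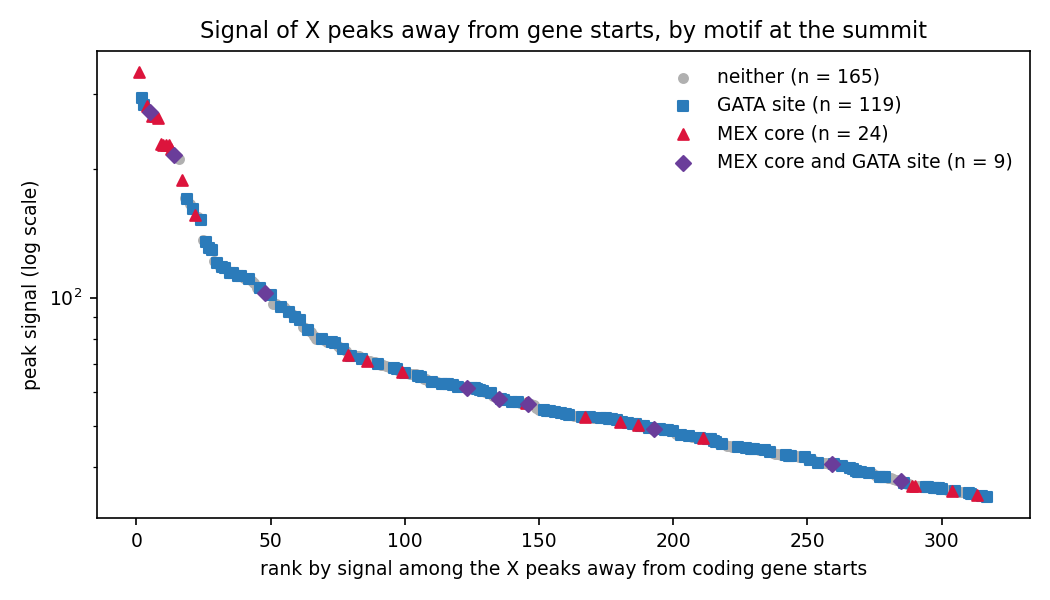
Deposited signal (log scale) of the 317 X peaks away from coding starts against their rank, with symbols for the motif within 50 bp of the summit. Triangles and diamonds, the peaks with a MEX core, fill 13 of the first 20 places and are spread thinly over the rest.

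The single strongest peak, at 9465687 to 9466046, had a signal of 337.75 and lay 1129 bp downstream of ZK899.6. It held a core with 1 mismatch and a GAGAGA, and it ranked 7 in the replicate 1 list and 509 in that of replicate 3. Peak 2 (signal 294.2), 37 bp downstream of F19H6.6, held a GATA site and no core, and ranked 11 and 57. Peak 5 in mom-1 (271.7) ranked 17 and 30, and peak 6 (266.3) ranked 16 and 32. Peaks 5 and 6 thus lay among the first 40 regions of each library's list. So did peak 8 and peak 3, which held 4 GATA sites and no core and ranked 15 and 33. Peak 7 (266.0), downstream of the metalloprotease gene adm-2, ranked 20 and 78, and peak 8 (263.3), downstream of F55G7.5, ranked 22 and 18. Peak 9 (229.4), downstream of F22H10.2, ranked 32 and 144. Each of peaks 7 to 9 held 1 core with 1 mismatch. Peak 10 near hpk-1 (228.0) ranked 45 and 49. Peak 11 (227.8), in an intron of Y41G9A.17, ranked 31 and 621, so that peaks 1 and 11 ranked far lower in replicate 3 than in replicate 1. Peak 12 (227.8), downstream of T27A8.7, ranked 40 and 50, and peak 13 (222.7), downstream of F25E2.2, ranked 41 and 224. Peak 14 (215.6), upstream of the F-box gene fbxb-58, held 3 cores and a GATA site and ranked 54 and 34. Peak 17 (188.2) lay in a coding exon of pks-1, a polyketide synthase gene, held a core and ranked 71 and 227.

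The strongest peaks without a core were of several kinds. Peak 15 (213.2) lay in F09E10.14, a noncoding gene or pseudogene, and peak 16 (211.5) downstream of F43E12.1. Neither held any of the 3 motifs, though peak 15 held the letters GATAAG after a C, which is not counted as a GATA site. Peak 18 (171.3) lay upstream of R03E9.2, also with none. Peak 19 in elt-3 (169.8) ranked 80 and 265 and held 2 GATA sites. Peak 20 (165.4) lay in an intron of nhr-14, a nuclear hormone receptor gene. It held GAGAGA and ranked 90 and 2180, the lowest replicate 3 rank of the 20.

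Of the 33 peaks with a core, 26 overlapped a region of the replicate 3 list (78.8%), against 156 of 284 without one (54.9%). Their median rank in that list was 504, against 4268 for the peaks without a core. In the replicate 1 list the medians were 901 and 1457. These ranks are given as a description. When each library's own 2940 strongest regions were used, replicate 1 alone gave cores at 30 of 317 X summits (9.46%) and 23 of 988 autosomal summits (2.33%). Replicate 3 alone gave 17 of 378 (4.50%) and 28 of 1495 (1.87%), with an odds ratio of 2.47 and an adjusted p of 0.014 by two-sided Fisher's exact test. Of its 20 strongest X regions 9 held a core, and 1 of its 20 strongest autosomal ones.

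**Figure D3:**
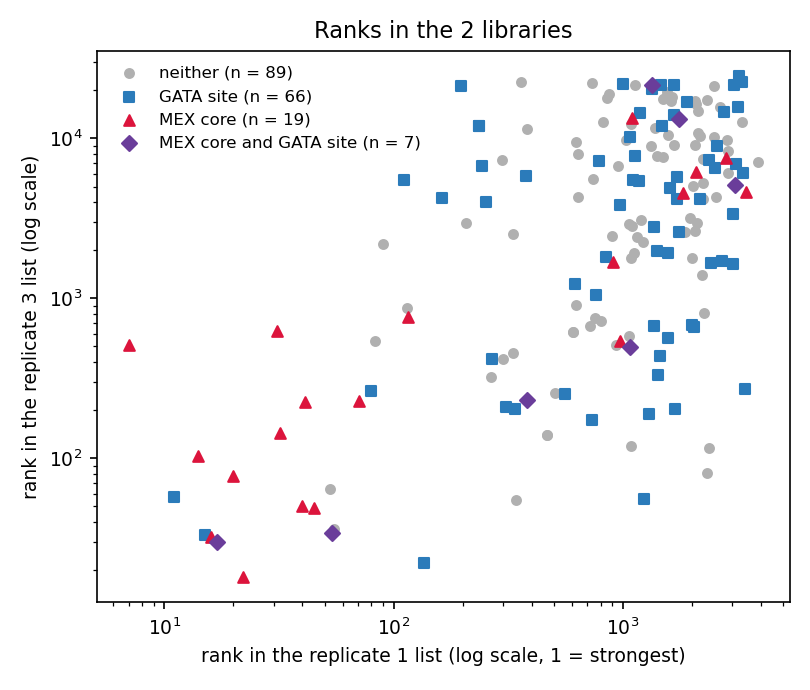
Rank of each X peak away from starts in the replicate 1 list (x axis) and the replicate 3 list (y axis), both log scales with 1 the strongest, for the peaks with a region in both. Peaks with a MEX core (triangles and diamonds) make up much of the lower left corner, where a peak is strong in both libraries, with median ranks of 901 in replicate 1 over all 33 and 504 in replicate 3 over the 26 that have a region there.

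MEX peaks were spread along X and lay mostly between genes. They occurred in 14 of 17 full 1-Mb bins, with a median spacing of 421656 bp, the smallest 588 bp and the largest 2005412 bp. The core lay a median of 17.5 bp from the summit, and within 25 bp in 24 of the 33. Of these peaks 9 held at least 2 cores and 2 held 3. GC content around their summits was 45.7% ± 6.90 (SD, n = 33), against 40.9% ± 7.24 (SD, n = 284) for the rest, and the part of base composition in the result was not tested. Of the 33 peaks 26 were intergenic. Intergenic X summits held a core in 26 of 163 (16%), and autosomal ones in 13 of 491 (2.65%). In introns the counts were 5 of 119 (4.20%) and 11 of 400 (2.75%). Whether the X difference was unlike between intergenic and intronic peaks was not tested.

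**Figure D4:**
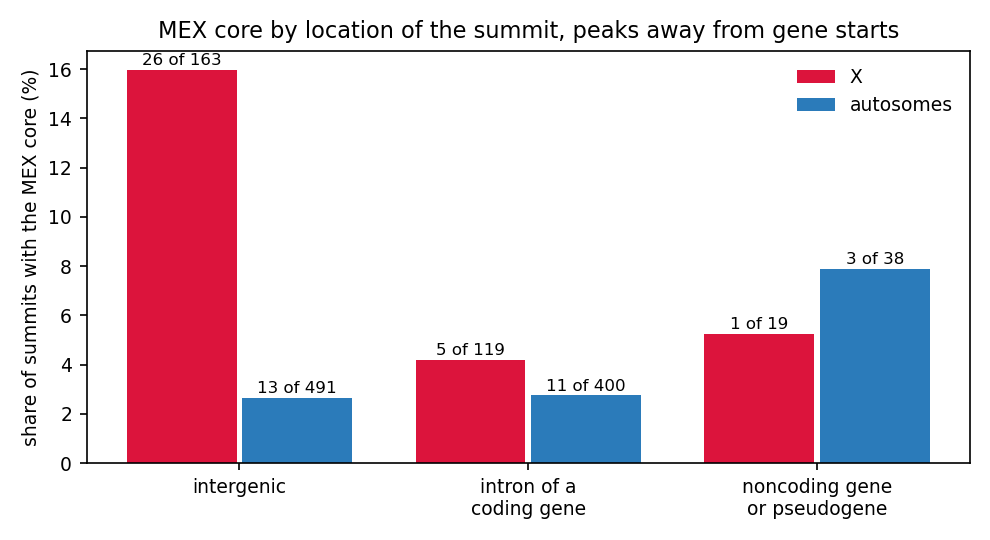
Share of summits with a MEX core among peaks away from starts, by location of the summit, for X (red) and autosomes (blue), with counts above the bars. Intergenic X summits stand at 16%, against 2.65% for intergenic autosomal ones.

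Among all candidate regions of the pooled list away from starts, those with a core passed the threshold more often. On X 33 of 94 with a core were thresholded (35.1%), and 284 of 3659 without (7.76%). On autosomes the counts were 30 of 292 (10.3%) and 956 of 16230 (5.89%). Leaving out regions with a core, X candidates still passed more often than autosomal ones, with an odds ratio of 1.34 and an adjusted p of 7.3e-05.

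GATA sites were found at 128 of the 317 summits (40.4%, 34.9% to 46.0%), where 34.8% of all nuclear peaks held one. The flanks held one in 24.6%, a ratio of 1.64, and the higher exact McNemar p was 0.0012. In the strongest regions of replicate 3 alone the ratio fell to 1.21, with an exact McNemar p of 0.242. At least 2 sites were found at 44 summits and at least 3 at 10. The related letters GATAAG, scored separately with any base before them, were found at 50 (15.8%) and in 5.52% of flanks. Autosomal summits away from starts held a GATA site in 46.2%, and the odds ratio of X against them was 0.787 (0.603 to 1.03), with an adjusted p of 0.104. The interval includes equal shares. Among the tiles 21.4% of X and 19.5% of autosomes held one.

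The GATA shares of the 2 sets lay further apart at high signal. In the same bins the X shares were 40.7%, 36.5%, 47.1%, 37.3% and 40%, and the autosomal shares 39.4%, 44.9%, 42.6%, 50.8% and 54.5%. Of the 20 strongest X peaks 5 held a GATA site, and of the 20 strongest autosomal ones 10. Among the 50% of peaks with the highest signal the odds ratio was 0.648, with an adjusted p of 0.033. X peaks with a core held a GATA site in 9 of 33 (27.3%), and those without in 119 of 284 (41.9%), with an odds ratio of 0.521 (0.205 to 1.21) and an adjusted p of 0.134. Without the peaks that hold a core, the X to autosome odds ratio for GATA sites was 0.839, with an adjusted p of 0.333.

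**Figure D5:**
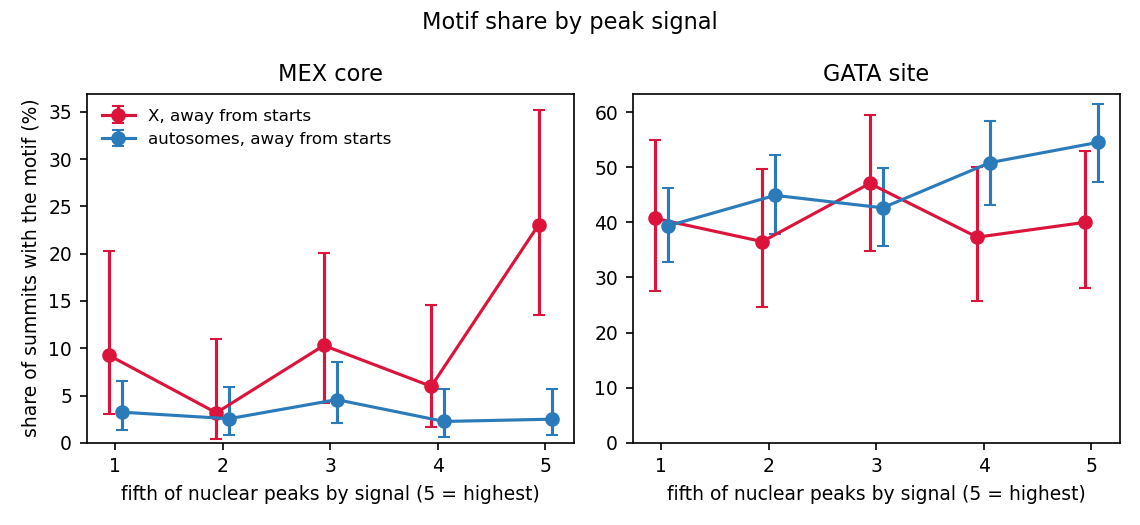
Share of summits with a MEX core (left) and a GATA site (right) in bins of 20% of nuclear peaks by signal, for peaks away from starts on X (red) and autosomes (blue), with exact 95% intervals. In the top bin 23.1% of X summits held a core against 2.50% of autosomal ones, and 40% held a GATA site against 54.5%.

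GAGAGA was found at 62 of the 317 summits (19.6%), where 25.1% of all nuclear peaks held it. The flanks held it in 5.52%, a ratio of 3.54, with a higher exact McNemar p of 1.7e-07. Autosomal summits away from starts held it in 327 of 986 (33.2%), and the odds ratio was 0.490 (0.354 to 0.671), with an adjusted p of 5.9e-06. In replicate 3 alone the odds ratio was 0.801, with an adjusted p of 0.403. Tiles of X and of autosomes held it in 4.91% and 5.24%. No motif of the 3 was found at 130 X summits (41.0%) and 321 autosomal ones (32.6%).

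All distinct 6-mers were compared between X and autosomal summits away from starts, with no motif chosen. At an adjusted p below 0.05 by two-sided Fisher's exact test 7 were more frequent on X (0.337% of those tested) and 11 less frequent (0.529%). Of the higher ones, CCCTGC was at 5.99% of X summits against 1.12% of autosomal ones (adjusted p = 0.0026, Fisher's exact test), CTGCGC at 7.57% against 2.23%, and CAGGGA at 5.68% against 1.62%. CCCTGC and CTGCGC are parts of the reverse complement of the MEX core. The others were AAGCGA at 7.89%, ATGCGA at 7.57%, GCGACA at 6.94% and TAACTA at 5.99%. Of the lower ones, AGAGAG was at 13.9% of X summits against 26.9% of autosomal ones (adjusted p = 0.0022, Fisher's exact test), with ACGCAG at 4.73% against 13.7% and AGACGC at 4.42% against 12.5%. The lower group also held GAGAGA at 19.6%, AGAGAA at 19.2%, AGAGAC at 11.4%, TAGAGA at 6.62% and AGAGAT at 10.7%. CGTCTC at 7.57%, AAATCG at 3.15% and CTCTCC at 5.99% completed it. In the flanks of the same peaks 0 6-mers passed by the same test, with 183 at an unadjusted p below 0.05. In replicate 3 alone 0 passed, with 123 unadjusted.

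Of the 317 peaks 182 (57.4%) overlapped a region of the replicate 3 list by at least 1 bp, where 58.6% of all nuclear peaks did. Of the autosomal peaks away from starts 572 (58%) did, with an odds ratio of 0.976 (0.750 to 1.27) and an adjusted p of 0.936. Nearly all, 316, overlapped a region of replicate 1. When the strongest regions of replicate 3 were taken instead and overlap with the replicate 1 list was counted, X was higher, with 181 of 378 (47.9%) against 621 of 1495 (41.5%). That odds ratio was 1.29 (1.02 to 1.63), with an unadjusted p of 0.027 by two-sided Fisher's exact test. It was not adjusted over the comparisons made in replicate 3 alone.

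By location, 163 of the 317 summits (51.4%) were intergenic and 119 (37.5%) in introns of coding genes. A further 19 lay in noncoding genes or pseudogenes, 10 in untranslated exons and 6 in coding exons. GATA sites were at 35.0% of the intergenic summits and 46.2% of the intronic ones, and at 47.7% and 46.8% of the autosomal ones. The nearest coding 5′ end lay a median of 2487 bp away, and at most 19163 bp. Another annotated transcript start of a coding gene had the summit in its window for 41 peaks (12.9%), so these lie away from the gene's outermost start only. Of the intergenic peaks 88 lay upstream of the nearest gene and 75 downstream.

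Many of the peaks stood in runs. When summits within 2000 bp of the next were joined, the 317 formed 253 groups, and 110 peaks had at least 1 neighbour. The longest run, 8 peaks over 8916 bp near R03E9.2 and mdl-1 (summits 6735807 to 6744723), reached a signal of 171.3. mdl-1 encodes a Mad-like transcription factor of the Max network. Only 2 of these 8 held a GATA site, and 0 a MEX core. Next came 5 around elt-3 and 4 in abts-4, an anion transporter gene.

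The tagged gene itself held 4 of the peaks in its introns, and 8 lay in the 40 kb around it. Both the chromosomal gene and the transgene hold this sequence, and their parts in these peaks cannot be told apart. The other peaks within elt-3 had signals of 112.3, 96.4 and 66.3. The 8 peaks held 0 MEX cores. Several genes held as many, but they are longer than elt-3, which spans 6343 bp. scd-1 held 5 peaks over its 21903 bp, and F49E2.5 (17153 bp), ZK470.2 (12690 bp) and H18N23.2 (18162 bp) held 4 each.

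Of the 2731 coding genes on X, 239 held one of these peaks or were nearest to one (8.75%), and 100 of them (3.66%) held it in the gene itself. Over the autosomes the share was 719 of 17242 (4.17%). Median gene length is given beside the count of each list, since a long gene offers more sequence away from its start. The lists were not tested. For coding genes, shares on X are to be read against 8.75% and shares on autosomes against 4.17%. MicroRNAs were linked by another rule, for which no such base share is given.

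Nuclear hormone receptors, ligand-regulated transcription factors of a large worm family, had the most members linked. Of 23 on X 13 were linked (56.5%), 7 of them in the gene, against 20 of 246 on autosomes (8.13%). Their median length was 4483 bp, against 2548 bp for all X coding genes, and the part of length in the count was not tested. After nhr-14 came nhr-48 with 117.2, from a peak 3496 bp upstream with 5 matches of GAGAGA, and nhr-3 with 93.5 in an intron. nhr-1 followed with 62.8. A receptor with a known epidermal role, nhr-25, needed for molting, had 3 peaks, the strongest at 61.3 in an intron with a GATA site. The lowest was nhr-40, with 35.1.

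Of 6 epidermal and developmental timing regulators (median length 5978 bp), elt-3 and nhr-25 were linked (33.3%). Of the 2 X genes of the body size TGF-beta pathway (11910 bp), sma-9 was linked. It encodes a Schnurri-like zinc-finger protein and had 5 peaks, the strongest 2913 bp upstream with a signal of 102.4, a MEX core and a GATA site. Of 9 genes of epidermal junctions and the cytoskeleton (8484 bp), 1 was linked (11.1%): mua-6, an intermediate filament gene, held a peak of 61.2 with a GATA site. Of 30 genes of cuticle collagens, which the epidermis secretes (1096 bp), col-166 was linked (3.33%), with 54.7. On autosomes 7 of 20 epidermal and timing regulators (35%) and 2 of 11 genes of the TGF-beta pathway (18.2%) were linked. So were 9 of 19 genes of epidermal junctions and the cytoskeleton (47.4%) and 1 of 145 cuticle collagen genes (0.690%).

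The other lists held genes of neurons, of several tissues or of the X signal. Of 34 neuropeptide genes (834.5 bp) 2 were linked (5.88%), flp-19 with 62.4 and flp-18 with 42.6, each with a GATA site in an upstream peak. Of 25 ligand-gated channel genes (3464 bp) lgc-40 was linked (4%), through a peak of 156.3 with an exact MEX core 102 bp downstream. Of 6 axon guidance genes (7686 bp) 1 was linked (16.7%): unc-115, an actin-binding protein gene, held a peak of 34.8. The 18 homeobox ceh genes (2644 bp) and the 19 potassium channel genes (8277 bp) had 0 linked. So had the 6 X genes of the X signal, sex determination and dosage compensation (5432 bp), with peak 4 counted for C34D10.1 and not for xol-1. On autosomes 2 of 106 neuropeptide genes (1.89%), 4 of 67 ligand-gated channel genes (5.97%) and 1 of 17 axon guidance genes (5.88%) were linked. So were 2 of 45 ceh genes (4.44%), 2 of 46 potassium channel genes (4.35%) and 2 of 17 genes of the X signal list (11.8%). Of 72 microRNA genes (93 bp) 6 (8.33%) lay within 1000 bp downstream of a summit, through 3 peaks. These were mir-47 (154.5), the neighbours mir-54, mir-55 and mir-56 (79.6), and mir-239a with mir-239b (41.2). None of the 3 peaks held a GATA site or a MEX core.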

How the data were processed

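The data are 2 ELT-3 ChIP-seq libraries of L1 larvae. Per the deposited manifest, the authors made lists of candidate regions from each library and from both pooled, against a shared control, and derived from them a list thresholded for reproducibility. Neither the aligner nor the caller is given in the sources used here. Both deposited value columns, signal and −log10 q-value, were identified by their place in the narrowPeak format. Signal was used for ranks only within a list, and −log10 q-values were not used for ranking. There were 30000 candidate regions in the pooled list, 30000 for replicate 1 and 24854 for replicate 3.

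Genes came from Ensembl release 115 on WBcel235 (ce11) and sequence from RefSeq. The ce10 thresholded list, with 604 X peaks of 2903, was not analysed further. Regions, not replicates, are the units of every test, and p-values measure the spread among regions of these libraries. Odds ratios carry exact 95% intervals. In each alternative, a p-value was adjusted beside the main p-values of the other comparisons, not beside those of the same alternative. Mitochondrial peaks were left out of comparisons.

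The peak set, gene lists, motifs and tests were chosen with earlier results of these data known. Named peaks and genes are the 20 strongest, the 6 strongest with an exact MEX core or at least 2 GATA sites, those in elt-3, up to 4 genes per list, called 6-mers, and those at thresholds. Other peaks and genes were chosen after their values were seen. Alternatives were other motif windows and flanks, motif forms, signal cuts, each library alone, gene windows, transcript starts, 1 peak per run and overlap rules. Added after seeing the data were sets without MEX cores, without the top 20% by signal or without the elt-3 region, and the comparisons of MEX cores by signal and of GATA sites by MEX core. A gene was linked when it held a summit or was nearest to it, and a microRNA when a summit lay within 1000 bp upstream. Python 3.11.15, scipy 1.17.1, statsmodels 0.14.6, pandas 2.3.3, matplotlib 3.10.9 and numpy 2.4.6 were used, and tests were checked on simulated data.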

Additional observations from a re-analysis of the deposited data

How the results depend on the processing

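The MEX core results kept their direction and stayed called in each of the 12 alternatives run against autosomes (odds ratios 2.34 to 10.5) and the 12 against flanks. Of the former, leaving out the elt-3 region removed no core and so could not lower the odds ratio. Leaving out replicate 3 or replicate 1 gave odds ratios of 0.754 and 1.18 for GATA sites. The first was called, and the second lay in the other direction. For GAGAGA they were 0.526 and 0.801. For a region in the other library's list they were 0.935 and 1.29, the second with an unadjusted p of 0.027 by Fisher's exact test. They were 0.990 and 1.75 for the top 20% by signal, and 1.45 and 1.05 for the thresholded share. The GATA ratio to flanks was 1.60 and 1.21, 13 and 0 6-mers passed, and the set held 317 and 378 peaks. In the top 50% by signal the GATA odds ratio was 0.648, 3 6-mers passed and 159 peaks were left. For a replicate 3 region the odds ratio was 1.02 with a window reaching 2000 bp upstream and 1000 bp downstream, 1.11 when the region covered the summit and 1.09 when it covered at least 50% of the peak. For the top 20% it was 0.983 with transcript starts, 0.980 for peaks with a region in each replicate, 0.956 with 1 peak per run and 0.834 without MEX cores. The number of 6-mers was 5 with the wider window, 11 with transcript starts, 8 for peaks in each replicate (181 peaks) and 0 in flanking windows. Fewer peaks were compared in several of these settings, and otherwise the cause was not tested. No paired analysis was possible because the 2 libraries form 1 group. Depth is unknown, and no list of rex sites was used here.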

Other observations

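In the printed sequences several exact MEX cores follow the letters TATC, the reverse complement of GATA, which a script then counted over the genome. Read on the strand of the core, TATC stood directly before 8 of the 22 exact cores inside the X peaks away from starts (36.4%). It stood before 1 of the 5 exact cores in other thresholded X peaks and before 0 of the 54 on X outside thresholded peaks. On the autosomes it stood before 0 of 4 inside and 0 of 229 outside thresholded peaks. The joined letters are not themselves counted as a GATA site. MEX letters beyond the core were not scored, so whether TATC is part of a longer MEX match was not tested. The count was chosen after seeing these sequences and includes the printed cores that prompted it. It is a description with no test, and several cores can lie in 1 peak.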
